A study of Saccharomyces cerevisiae with 100 samples.

Results

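The coding T-to-C single-nucleotide variants (SNVs) outside chromosome XII were examined in yeast strains that had become resistant to methyl methanesulfonate (MMS). An SNV was included if the deposited annotation called it synonymous, nonsynonymous or stop-gained, if it did not lie on chromosome XII, and if the reference and variant bases were T and C or, read on the other DNA strand, A and G. This rule took 507 of the 1707 coding SNVs outside chromosome XII (29.7%) and of the 2904 SNVs of the table. The 95 suppressor strains and their parent, YJT75, are W303 derivatives of mating type MATa that all carry sml1Δ::URA3 and rad53Δ::LEU2, so that the parent lacks Rad53 and Sml1 as well. The paper obtained the suppressors from plates that contained MMS and then checked their resistance. For sequencing, cells were grown in rich YPD medium to exponential phase, and the genome of each strain was sequenced from 1 library. No strain was replicated, and the read depth behind single SNVs was not given, so no interval is placed on a single allele frequency (the share of reads that carry the variant base).

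MMS methylates bases of DNA, mainly guanine and adenine. Rad53 is an effector kinase of the S. cerevisiae DNA damage checkpoint, and loss of Sml1, an inhibitor of ribonucleotide reductase, lets cells without Rad53 live. A T-to-C change on one strand is an A-to-G change on the other, and both are transitions, which keep a pyrimidine a pyrimidine or a purine a purine. Within a gene the strands can be told apart, since the coding strand reads like the mRNA and the template strand is the one transcribed. The last letter of a systematic yeast gene name gives this strand: W for genes read along the reference strand and C for genes read along its complement. Throughout, the other substitution classes are likewise named by their pyrimidine, so that C-to-T stands for C-to-T and G-to-A together.

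Of the 507 SNVs, 497 were found in 1 suppressor, 9 in 2 suppressors and 1 in 49 suppressors, counting a strain as a carrier from 0.4 upwards. The 497 had a median allele frequency of 1 in their carrier, with a lowest value of 0.405, and 450 of them stood at 0.9 or above. In the other suppressors they were near 0: 212 were listed at 0 in every other strain, and the highest value in a non-carrier was 0.0747. In YJT75, 494 of the 507 were listed at 0, and the highest value was 0.0939. Allele frequencies between 0.4 and 0.7 made up 6.44% of the T-to-C SNVs found in 1 suppressor, against 4.15% of the other coding SNVs. The 32 T-to-C SNVs in this range came from 18 suppressors, with 5 each in SUP23 and SUP124. Taken suppressor by suppressor the difference averaged 3.91 percentage points (92 suppressors; two-sided sign-flip permutation test, adjusted p = 0.0455 over 2 tests), while the 95% interval of the pooled difference, -0.647 to 5.22 points, spanned 0.

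The tests that follow count the 497 SNVs found in 1 suppressor and take the suppressor as the unit, because SNVs of 1 strain share their source. The sign of each suppressor's difference was flipped at random 100000 times. Errors of pooled shares are standard errors from leaving out each suppressor in turn (jackknife).

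Pooled over suppressors, T-to-C was the most frequent class of coding SNV. In 40 of the 95 suppressors it was the most frequent class alone. With SNVs found in more than 1 suppressor left out, a suppressor had 5.23 ± 2.98 T-to-C SNVs (SD, 95 suppressors). The lowest value was 0, the median 5 and the highest 12. The other transition, C-to-T, had 2.95 ± 1.95 per suppressor. The transversions, which exchange a purine for a pyrimidine, had 3.14 ± 2.24 for C-to-A, 2.80 ± 2.10 for T-to-A, 2.65 ± 1.86 for C-to-G and 0.884 ± 0.966 for T-to-G. T-to-C outnumbered C-to-T in 64 suppressors and was outnumbered by it in 21. It outnumbered C-to-A in 63 suppressors against 17, C-to-G in 73 against 15, T-to-A in 67 against 16 and T-to-G in 90 against 0. Each of the 5 differences had an adjusted p of 1e-05 in the sign-flip permutation test, the smallest that the draws can give. Pooled over suppressors, T-to-C made up 29.6% ± 1.25 of the coding SNVs, C-to-A 17.8% ± 0.992, C-to-T 16.7% ± 0.954, T-to-A 15.9% ± 0.965, C-to-G 15.0% ± 0.816 and T-to-G 5.01% ± 0.494. These are shares of SNVs and not rates per available base, since the base composition of the coding strands was not analysed here.

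The T-to-C share varied among suppressors with an SD close to that of counting alone. It averaged 30.5% ± 14.5 (SD, 95 suppressors), with a median of 30.0% and quartiles of 20.3% and 37.5%, whereas binomial counting at the pooled share would give an SD of 13.5 percentage points. The share was 0% in SUP77 and SUP80, which had 3 and 6 coding SNVs found in 1 suppressor, and 100% in SUP118, which had 1. With shared SNVs counted, SUP118 had 7 T-to-C SNVs among 17 coding SNVs. SUP77 and SUP80 each carried a shared T-to-C SNV in CHC1, described below. In 4 of the 95 suppressors the exact Clopper-Pearson 95% interval, which covers counting error only, excluded the pooled share. The number of T-to-C SNVs itself was more spread than a Poisson count, with a variance of 8.88 about a mean of 5.23. Suppressors with more coding SNVs of other classes had more T-to-C SNVs (Pearson r = 0.388, permutation adjusted p = 4e-05; Spearman rho = 0.43, permutation adjusted p = 4e-05; 95 suppressors, 2 tests). The suppressors farthest from the median of the other classes were a tie of 6 (SUP1, SUP9, SUP20, SUP45, SUP62 and SUP118), and r was between 0.371 and 0.425 without any 2 of them. SUP118 stood at 0 there, since the SNVs it shared with SUP119 and other strains were not counted. The most T-to-C SNVs found in 1 suppressor, 12 each, were in SUP15 and SUP17.

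The T-to-C share was higher in coding sequence than outside annotated genes. It was 29.6% of 1677 SNVs in coding sequence and 21.8% of 660 SNVs outside genes. The per-suppressor difference was 6.24 ± 2.33 percentage points (SE, 93 suppressors; sign-flip permutation test, adjusted p = 0.0172 over 2 tests), and the pooled difference had a 95% interval of 4.21 to 11.4 points. On chromosome XII, which the rule leaves out, T-to-C made up 29.4% of 289 coding SNVs. The pooled difference of the other chromosomes from it was 0.224 points, with a 95% interval of -5.55 to 6.

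The T-to-C SNVs were unevenly placed on the strands of genes. On the coding strand 188 of the 497 read T-to-C (37.8% ± 2.43) and 309 read A-to-G (62.2%), which is 1.64 A-to-G changes for each T-to-C change. Per suppressor, T-to-C on the coding strand had a median of 2 and a highest value of 7, and A-to-G a median of 3 and a highest value of 8. T-to-C was the more frequent reading in 23 suppressors, A-to-G in 64, and 8 had equal numbers. T-to-C averaged 1.98 ± 1.76 per suppressor and A-to-G 3.25 ± 2.11 (SD, 95 suppressors). The difference of -1.27 ± 2.50 differed from 0 (sign-flip permutation test, p = 3e-05, adjusted p = 0.00018 over the 6 classes). Leaving out any 1 suppressor kept the A-to-G share between 61.6% and 62.9%. Over all 507 SNVs, shared ones included, the counts were 191 T-to-C and 316 A-to-G.

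**Figure D1:**
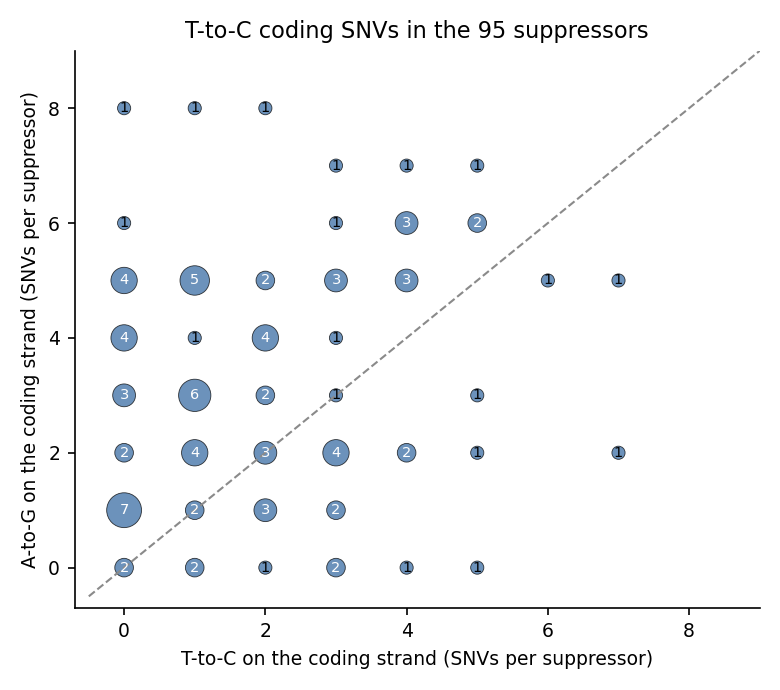
Each disc holds the suppressors with a given number of T-to-C SNVs on the coding strand (x axis, SNVs per suppressor) and A-to-G SNVs on the coding strand (y axis, SNVs per suppressor). The number in the disc and its area give the count of suppressors, and the dashed line marks equal numbers. Of the 95 suppressors, 64 lie above the line, 8 on it and 23 below it.

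The other classes fell on both sides. T-to-A, which also replaces a T:A pair, read as A-to-T on the coding strand in 162 of 266 SNVs (39.1% ± 3.05 with the pyrimidine on the coding strand; adjusted p = 0.00166 in the same permutation test). T-to-G read so on the coding strand in 37 SNVs and as A-to-C in 47 (44.0% ± 5.28, permutation adjusted p = 0.314). The classes that replace a C:G pair leaned to the pyrimidine. C-to-T read so on the coding strand in 164 of 280 SNVs (58.6% ± 2.86, permutation adjusted p = 0.00622). The counts were 171 of 298 for C-to-A (57.4% ± 2.46, permutation adjusted p = 0.00638) and 160 of 252 for C-to-G (63.5% ± 3.14, permutation adjusted p = 0.00036).

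**Figure D2:**
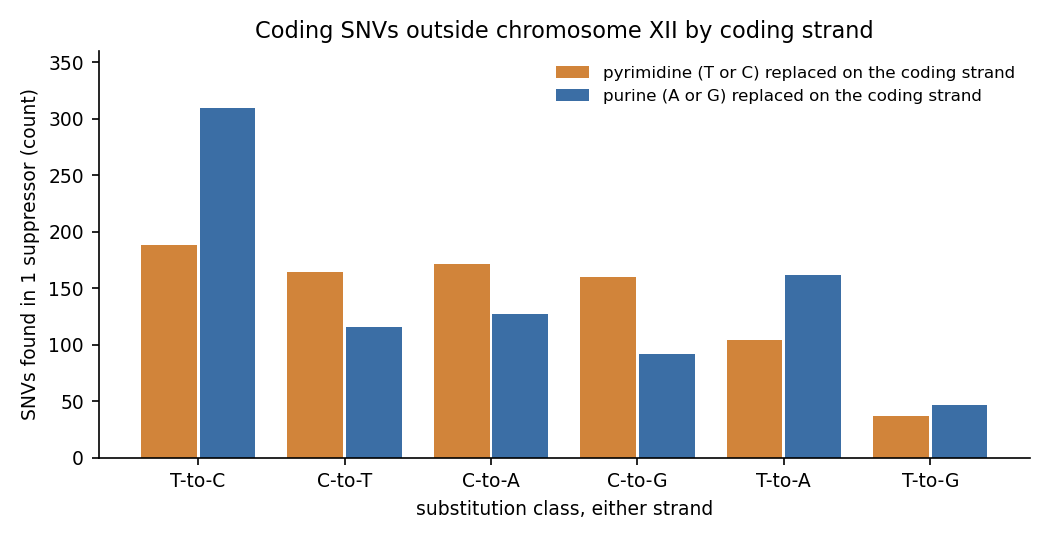
Coding SNVs outside chromosome XII that were found in 1 suppressor (y axis, count), by substitution class (x axis) and by whether a pyrimidine (orange) or a purine (blue) was replaced on the coding strand. T-to-C has 188 and 309, and the 3 classes of C:G pairs have the taller orange bar.

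The coding-strand share of T-to-C was compared with that of each other class. The difference from C-to-T was -24.7 ± 5.03 percentage points (mean of the per-suppressor differences, SE, 82 suppressors with both classes; sign-flip permutation test, adjusted p = 2.5e-05 over 5). The difference was -24.6 ± 4.69 points from C-to-G (82 suppressors, permutation adjusted p = 2.5e-05) and -18.4 ± 3.99 points from C-to-A (85 suppressors, permutation adjusted p = 5e-05). No difference was detected from T-to-A (-2.27 ± 5.43 points, 84 suppressors, permutation adjusted p = 0.678), where the pooled difference had a 95% interval of -9.93 to 7.38 points. The interval for T-to-G was -16.9 to 4.47 points (permutation adjusted p = 0.614).

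Of the 507 SNVs, 332 were nonsynonymous and 175 synonymous, and none created a stop codon. No T-to-C or A-to-G change turns a sense codon into a stop codon under the genetic code, so the last count is fixed by the class. A T-to-C change at the third codon position never alters the residue, and an A-to-G change there alters it only in the isoleucine codon that becomes methionine. Among the SNVs found in 1 suppressor, 65.6% of T-to-C changes were nonsynonymous, against 76.4% of all other classes together with stop-gained changes included. The per-suppressor difference was -10.2 ± 2.71 percentage points (SE, 92 suppressors; sign-flip permutation test, adjusted p = 0.0006 over 6). T-to-C stood below C-to-A (82.9%, permutation adjusted p = 0.00012), C-to-G (83.3%, permutation adjusted p = 0.00214) and T-to-A (78.6%, permutation adjusted p = 0.00057). From T-to-G (76.2%) the difference missed the threshold (permutation adjusted p = 0.0506, 95% interval of the pooled difference -20.3 to -0.87 points). From the other transition, C-to-T (61.1%), it was 4.52 points pooled, with an interval of -1.79 to 10.8 (permutation adjusted p = 0.0959).

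The strand lean lay in the nonsynonymous T-to-C SNVs. Of these 326, 223 read A-to-G on the coding strand (31.6% ± 2.44 T-to-C), a ratio of 2.17 A-to-G to 1 T-to-C. The synonymous SNVs split evenly, with 85 reading T-to-C and 86 A-to-G (49.7% ± 4.24 T-to-C). The T-to-C reading was less frequent in nonsynonymous than in synonymous SNVs, with a per-suppressor difference of -15.9 ± 4.72 percentage points (SE, 69 suppressors with both kinds; sign-flip permutation test, adjusted p = 0.00224 over 2), and the pooled difference had a 95% interval of -26.8 to -9.42 points. Read the other way, 54.8% ± 3.63 of the T-to-C and 72.2% ± 2.25 of the A-to-G changes on the coding strand were nonsynonymous. For T-to-A the corresponding counts were 75 and 134 nonsynonymous (35.9% with T on the coding strand) and 29 and 28 synonymous (50.9%), a comparison that was not tested. The same shares for T-to-G were 42.2% nonsynonymous and 50% synonymous. With C on the coding strand they were 53.2% and 67% for C-to-T, 56.7% and 60.8% for C-to-A, and 64.3% and 59.5% for C-to-G. None of these was tested, and the nonsynonymous SNVs of the other classes include stop-gained changes. The numbers of codons at which each change could be nonsynonymous were not analysed here, and their part in the difference was not tested.

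**Figure D3:**
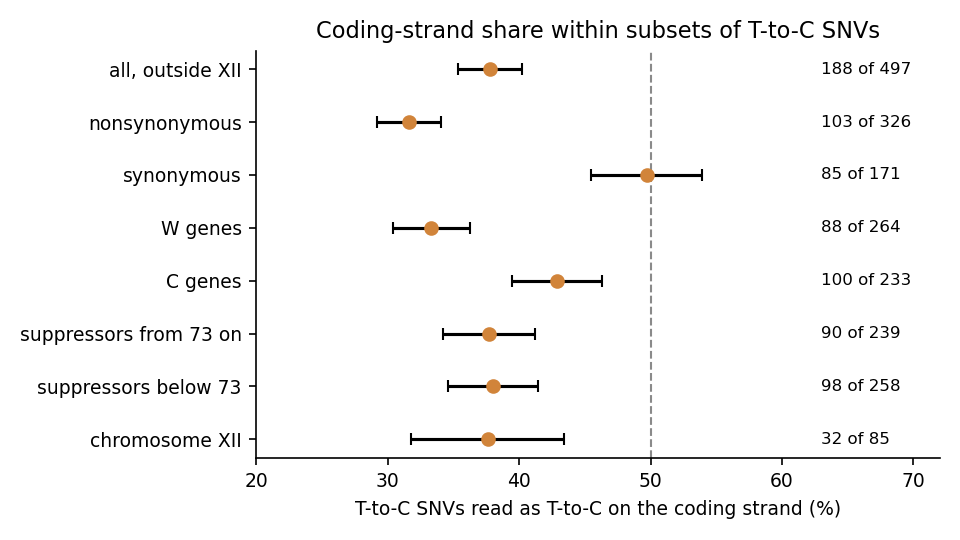
Share of T-to-C SNVs that read T-to-C on the coding strand (x axis, %), with jackknife standard errors, for all SNVs found in 1 suppressor and for subsets. The counts stand at the right and the dashed line marks 50%. The nonsynonymous share is 31.6%, the synonymous share 49.7% and the share on chromosome XII 37.6%.

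A-to-G was the more frequent reading in genes of either orientation. In W genes 88 SNVs read T-to-C and 176 A-to-G on the coding strand (33.3% ± 2.93 T-to-C, sign-flip permutation p = 2e-05). In C genes the counts were 100 and 133 (42.9% ± 3.43, sign-flip permutation p = 0.0459). These p-values were not adjusted, and the one for C genes lay close to the threshold of 0.05. The per-suppressor difference between W and C genes was -7.62 ± 4.79 points (73 suppressors; sign-flip permutation test, adjusted p = 0.118), while the pooled difference had a 95% interval of -17.6 to -1.55. The permutation test used the suppressors with SNVs in both kinds of gene, and the pooled interval used all suppressors and a normal approximation, so the difference between W and C genes is not settled by these values. W genes held 53.1% of the T-to-C SNVs and 51.9% of the other coding SNVs (95% interval of the difference -4.09 to 6.42 points). Read on the reference strand without regard to genes, the coding SNVs had 221 T-to-C and 276 A-to-G changes (per-suppressor difference -0.579 ± 2.11, SD; sign-flip permutation test, adjusted p = 0.0212 over 2), and the SNVs outside genes had 72 of each. On chromosome XII 32 coding SNVs read T-to-C and 53 A-to-G (37.6% ± 5.82 T-to-C), with a sign-flip permutation p of 0.0543.

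The suppressors numbered from 73 on and below 73 were also set side by side, because an SNV in CHC1 (YGL206C), the clathrin heavy chain gene, divides the collection near there. This synonymous SNV, at position 104034 of chromosome VII (sacCer2, the build of the files), was found in all 48 suppressors numbered from 73 on and in SUP23, each at 0.993 or above. It was at 0.0044 or below in the other 46 suppressors and at 0 in YJT75. The T-to-C share of coding SNVs was 31.4% in the 48 suppressors from 73 on and 28.2% in the 47 below 73. No difference was detected between these shares (3.24 points, permutation of the label over suppressors, adjusted p = 0.598 over 3), and no interval was computed for it. The coding-strand share of T-to-C was 37.7% and 38%, and the nonsynonymous share 65.7% and 65.5%. The correlation of T-to-C with the other classes was r = 0.434 from 73 on and r = 0.338 below 73.

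No chromosome held a share of the T-to-C SNVs that differed from its share of the other coding SNVs after adjustment over 15 chromosomes (smallest adjusted p = 0.4 in the sign-flip permutation test). T-to-C made up between 22.3% ± 3.74 of the coding SNVs on chromosome II and 37.8% ± 5.19 on chromosome VIII. Chromosome IV had the most T-to-C SNVs, 64, and chromosome III the fewest, 12. A-to-G on the coding strand was the more frequent reading on 12 of the 15 chromosomes, from 53.8% on chromosome VI to 76.9% on chromosome IX. Chromosome III had 6 of each, and on chromosomes X (22 T-to-C, 20 A-to-G) and VIII (21 T-to-C, 16 A-to-G) the order was reversed. These differences between chromosomes were not tested.

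**Figure D4:**
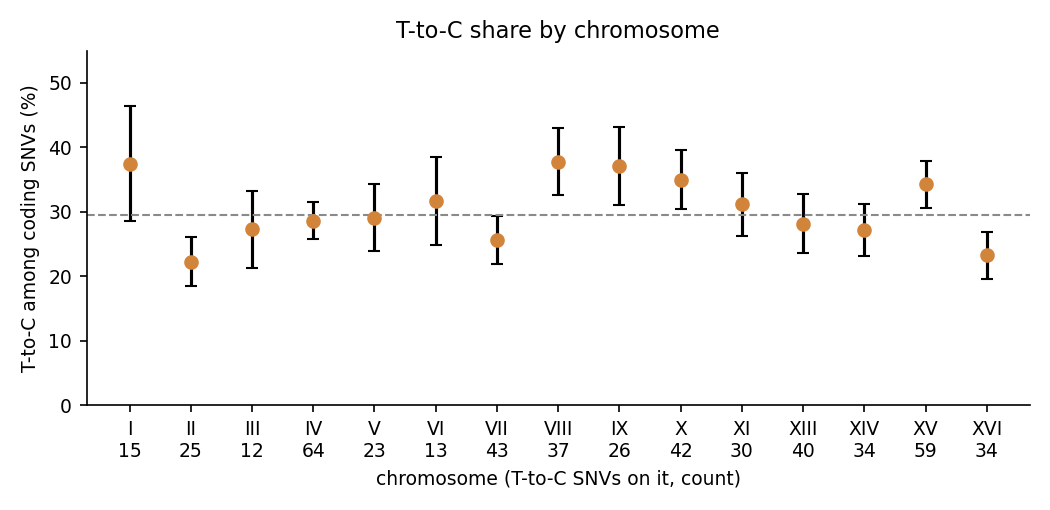
Share of T-to-C among the coding SNVs of each chromosome (y axis, %; points with jackknife standard errors). The x axis gives the chromosome and its number of T-to-C SNVs, and the dashed line marks the pooled share of 29.6%. The points run from 22.3% on chromosome II to 37.8% on chromosome VIII.

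T-to-C SNVs lay close to another SNV of the same suppressor less often than the other coding SNVs. Within 10000 bases, 54 of the T-to-C SNVs (10.9%) and 235 of the other coding SNVs (19.9%) had a neighbour, coding or not. The per-suppressor difference was -9.04 ± 1.95 points (SE, 92 suppressors; sign-flip permutation test, adjusted p = 3e-05 over 3 distances). Within 1000 bases the shares were 3.22% and 6.10% (permutation adjusted p = 0.0186), and within 100 bases 1.61% and 2.97% (permutation adjusted p = 0.089). By class, 10.9% ± 1.58 of T-to-C, 14.7% ± 2.41 of T-to-A, 18.7% ± 2.97 of C-to-G, 19% ± 4.67 of T-to-G, 21.5% ± 3.19 of C-to-A and 24.6% ± 2.90 of C-to-T SNVs had a neighbour within 10000 bases. Only 8 T-to-C SNVs had one within 100 bases. Of these, 3 were synonymous changes in HXT1 (YHR094C), a low-affinity glucose transporter gene, all in SUP130 at positions 292152, 292263 and 292269 of chromosome VIII and at allele frequencies of 0.955, 0.983 and 0.986. All 3 were found in SUP130 alone and were listed at 0 in YJT75. HXT1 has close paralogs, and whether reads of another HXT gene contributed was not tested. Another 2 lay 7 bases apart in JNM1 (YMR294W) in SUP74.

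**Figure D5:**
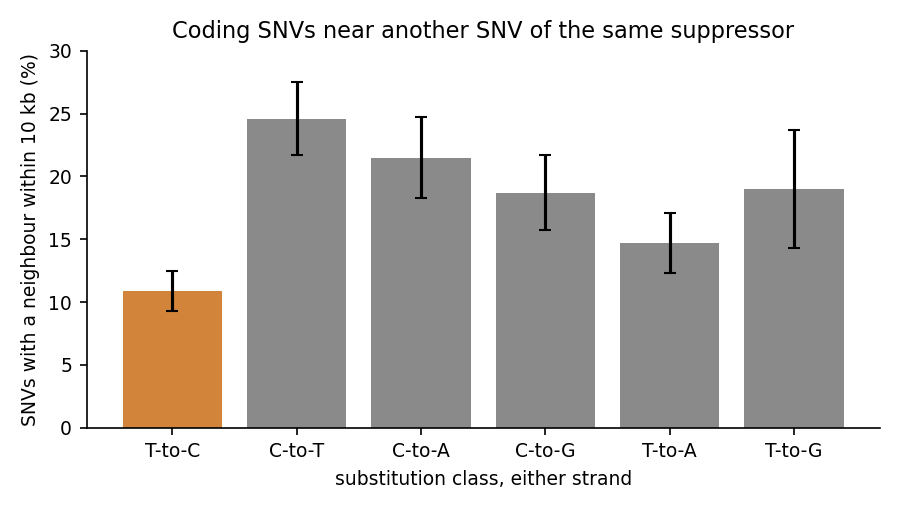
Coding SNVs with another SNV of the same suppressor within 10000 bases (y axis, %), by substitution class (x axis), with jackknife standard errors. The bar of T-to-C (orange) is at 10.9%, and those of the other classes (grey) run from 14.7% to 24.6%.

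The 507 SNVs fell in 460 genes, of which 418 had 1, 38 had 2, 3 had 3 and 1 had 4. The gene with 4 was MYO2 (YOR326W), a class V myosin that moves vesicles and organelles along actin, and no other class of coding SNV hit it. Nonsynonymous changes were found at positions 926799 (SUP127), 927371 (SUP35) and 928434 (SUP92) of chromosome XV, each at 1, and a synonymous change at 928684 (SUP15) at 0.948. PDR3 (YBL005W), a transcription factor of pleiotropic drug resistance, had 3 nonsynonymous A-to-G changes on the coding strand. They lay at positions 217834 (SUP63, 0.991), 217873 (SUP88, 1) and 219886 (SUP115, 0.623) of chromosome II. ACF4 (YJR083C) had 3 synonymous changes, in SUP30, SUP74 and SUP75.

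Besides MYO2 and PDR3, 12 genes had 2 nonsynonymous T-to-C SNVs, each pair in different suppressors. Those with a well-known role were MTW1 (kinetochore), LTE1 (mitotic exit), FAD1 (synthesis of FAD), SCH9 (a kinase downstream of TORC1), HIR3 (histone gene repression and nucleosome assembly), SAL1 (a mitochondrial carrier), MIP1 (the mitochondrial DNA polymerase) and DDC1 (the checkpoint clamp). BPH1, CSS1, TDA9 and MPA43 were the others. In SCH9 (YHR205W) the SNVs lay at positions 510063 (SUP119, 0.957) and 511791 (SUP116, 1) of chromosome VIII. In MIP1 (YOR330C) both read T-to-C on the coding strand, at 941095 (SUP72, 0.993) and 942094 (SUP86, 1) of chromosome XV. Over these 14 genes, 7 nonsynonymous SNVs read T-to-C and 23 A-to-G on the coding strand. Among all nonsynonymous members A-to-G made up 68.7%.

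The 9 SNVs found in 2 suppressors came from 4 pairs of strains. SUP118 and SUP119 shared 5 that no other strain had, all nonsynonymous and all A-to-G on the coding strand, in YBR071W, UBP9 (a ubiquitin protease), PMA1 (the plasma membrane proton pump), KIC1 (a kinase of polarised growth) and BUD22 (ribosome biogenesis). Each stood between 0.983 and 1 in both. This pair shared 16 of the 17 coding SNVs of SUP118 and the 19 of SUP119. SUP39 and SUP47 shared a synonymous SNV in DSF1, at a lowest value of 0.639, and a nonsynonymous one in NIP100, a dynactin subunit, at a lowest value of 0.579. SUP13 and SUP14 shared 1 in STP22, a subunit of ESCRT-I, and it was the sole coding SNV they shared. SUP86 and SUP96 shared 1 in YCL019W, a retrotransposon reading frame with near-identical copies elsewhere, which stood at 0.0939 in YJT75. Shared SNVs were left out of the tests because their carriers may share descent.

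Genes of DNA metabolism were read from lists, each set beside the 29.7% that T-to-C made up of all coding SNVs outside chromosome XII. The checkpoint list had 7 T-to-C SNVs among 16 coding SNVs (43.8%), 6 of them nonsynonymous. MEC1 (YBR136W), the kinase at the head of the checkpoint, had an A-to-G change on the coding strand at position 508993 of chromosome II at 0.994 in SUP75. DUN1, the kinase below Rad53, had one at position 281586 of chromosome IV in SUP21 (0.983), and PDS1, which encodes securin, one at position 680991 of chromosome IV in SUP72 (1). DDC1 (YPL194W) had an A-to-G change at position 179409 of chromosome XVI in SUP23 (1) and a T-to-C change at 179795 in SUP124 (0.552). The remaining nonsynonymous change was in MRC1, a mediator of the replication checkpoint, at 0.693 in SUP89, and the synonymous one in PTC2. All these suppressors lack RAD53 itself.

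The replication fork list had 5 T-to-C SNVs among 16 coding SNVs (31.2%). All 5 were nonsynonymous, against 65.5% of all 507 T-to-C SNVs. They lay in ORC2 (the origin recognition complex, SUP45), DPB4 (DNA polymerase epsilon, SUP111), CTF18 (an alternative clamp loader, SUP19), RIF1 (control of origin firing and telomeres, SUP6) and POL2 (the catalytic subunit of DNA polymerase epsilon, SUP125, at 0.804). The first 3 read A-to-G and the last 2 T-to-C on the coding strand.

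The list of DNA repair and damage tolerance had 8 T-to-C SNVs among 31 coding SNVs (25.8%). All 8 were nonsynonymous, all read A-to-G on the coding strand, and all stood between 0.99 and 1. They lay in the mismatch repair genes MSH3 (SUP40) and MLH3 (SUP9), the nucleotide excision repair genes SSL2 (SUP1) and RAD1 (SUP115), the helicase gene SRS2 (SUP92), the end-binding gene YKU70 (SUP106), SLX8 (a SUMO-targeted ubiquitin ligase, SUP26) and ESC2 (SUP40). The 8 changes came from 7 suppressors, while 65.5% of all 507 T-to-C SNVs were nonsynonymous and 68.7% of the nonsynonymous ones read A-to-G.

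The mRNA decay list had 4 T-to-C SNVs among 25 coding SNVs (16.0%). XRN1 (YGL173C), the cytoplasmic exonuclease of decapped mRNA, had an A-to-G change on the coding strand at position 176908 of chromosome VII at 1 in SUP79. RAI1, a partner of the nuclear exonuclease, was changed in SUP69 at 0.995, and MOT2, a ubiquitin ligase of the CCR4-NOT complex, in SUP74 at 1. The fourth was synonymous, in CDC39.

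The list of histone deacetylases, demethylases and silencing genes had 8 T-to-C SNVs among 22 coding SNVs (36.4%), 4 nonsynonymous and 4 synonymous. SAP30, a subunit of the Rpd3L deacetylase, had an A-to-G change on the coding strand at position 795504 of chromosome XIII at 1 in SUP69. SUM1, a repressor of meiotic genes and silencing factor, was changed in SUP82 and ESC1, which tethers silent chromatin to the nuclear edge, in SUP10, each at 1. SIR1, a silencing gene of the mating-type loci, had a nonsynonymous A-to-G change on the coding strand at position 641945 of chromosome XI at 0.605 in SUP103. In RPD3 itself and in SDS3 of the same complex the T-to-C SNVs were synonymous, in SUP13 and SUP8.

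The list of acetyltransferases and chromatin remodellers had 15 T-to-C SNVs in 12 genes among 40 coding SNVs (37.5%), 10 of them nonsynonymous. Members of the SWI/SNF remodeller were SNF5 (SUP17, A-to-G) and SNF6 (SUP130, T-to-C), and RSC30 (SUP74, T-to-C) belongs to the RSC remodeller. IES6 (SUP14) encodes an INO80 subunit, BDF2 (SUP85) a bromodomain protein, SPT6 (SUP8) a histone chaperone of elongation, UBP8 (SUP36) the deubiquitinase of SAGA, and HIR2 (SUP67) and HIR3 (SUP7) histone gene repressors. These last 6 nonsynonymous changes read A-to-G on the coding strand and stood between 0.905 and 1. HIR3 had another change, T-to-C on the coding strand, at 0.537 in SUP69. In TRA1, a shared subunit of SAGA and NuA4, both T-to-C SNVs were synonymous. The list of deoxyribonucleotide supply, of 20 genes, had 1 T-to-C SNV among 7 coding SNVs (14.3%). It lay in TUP1, a corepressor of ribonucleotide reductase genes. It was a nonsynonymous T-to-C change on the coding strand at 1 in SUP111. DUN1, named with the checkpoint list, was not on this list.

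The study deleted 32 genes to test them, a list chosen on these same strains and so not independent of them. It held 14 T-to-C SNVs in 13 genes among 49 coding SNVs (28.6%), 13 of them nonsynonymous. The paper filtered its SNVs to nonsynonymous ones before choosing genes. The 13 nonsynonymous SNVs are therefore not independent of that choice, and no excess of nonsynonymous changes can be read from them. Beyond those named above, PPH22, a catalytic subunit of protein phosphatase 2A, had a T-to-C change on the coding strand at 1 in SUP3. MLP2, a nuclear pore basket protein gene, was changed in SUP4 (1) and DAS1 in SUP57 (0.993), both A-to-G on the coding strand. In the paper, deleting XRN1, SIR1 or ESC1 made rad53Δ cells less sensitive to MMS. The other tested genes named here were not among the deletions reported to do so. Each strain carried other coding SNVs besides these, and whether any single SNV alters growth in MMS was not measured in these data.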

How the data were processed

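Genomic DNA of 95 suppressors and YJT75 was sequenced as paired ends. The authors aligned the reads to sacCer2 with Novoalign 2.07.14, removed duplicates with Picard 1.81, counted bases with deepSNV and annotated SNVs with snpEff. They kept SNVs with at least 20 variant reads and an allele frequency of at least 0.4, and dropped those at 0.1 or above in the control and multiallelic sites. Position 446463 of chromosome II is nevertheless listed with 2 variant bases. The deposited values are allele frequencies per strain, in which 10 stands for 1. They are neither counts nor ratios to a control, and depth per SNV was not given. The tables of the 2 other experiments enter no comparison, and their T-to-C counts stand under the other observations.

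The coding strand came from the gene name. Of 460 gene identifiers, 453 matched the annotation table, which gave symbols only. Tests used Python 3.11.15, numpy 2.4.6, pandas 2.3.3 and scipy 1.17.1, with two-sided sign-flip permutation over suppressors (100000 draws, p threshold 0.05), Benjamini-Hochberg adjustment, and normal 95% intervals from the jackknife. The sign-flip test was tested on simulated data. Members, gene lists and the split at suppressor 73 were chosen with earlier results of these data known. The tests of nonsynonymous against synonymous SNVs, W against C genes, allele frequencies under 0.7, neighbouring SNVs, coding against other sequence, chromosome XII, and label ranges were added after seeing the data. Named genes had at least 2 nonsynonymous T-to-C SNVs, at least 3 of any effect, a T-to-C SNV in at least 2 suppressors, or belonged to a list and had a nonsynonymous one at 0.7 or above. JNM1, HXT1 as a neighbour group, MRC1, SIR1 and the synonymous SNVs of list genes were named after their values were seen.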

Additional observations from a re-analysis of the deposited data

Results flagged for a closer look

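The coding-strand share of T-to-C differed between nonsynonymous and synonymous SNVs. The per-suppressor difference was -15.9 percentage points, nonsynonymous minus synonymous, and the pooled shares were 31.6% and 49.7%. The sign-flip permutation test over 69 suppressors gave an adjusted p of 0.00224.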

How the results depend on the processing

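The coding-strand difference of T-to-C (-1.27 SNVs per suppressor) kept its direction under all 11 alternatives and its side of the threshold under 9. It was -0.0105 (permutation p = 1) with synonymous SNVs only and -0.221 (permutation p = 0.0543) with the SNVs of chromosome XII only, a set of 85. The other 9 gave -0.863 to -1.40. The value of -1.40 belongs to the 80 suppressors that had at least 10 coding SNVs, an alternative chosen after seeing the data. The T-to-C share of coding SNVs stayed within 28.2% and 31.4% under 8 alternatives. The nonsynonymous share of T-to-C minus that of the other classes stayed past the threshold under the same 8, at -7.86 to -20.6 points. The largest value came from counting every SNV in each carrier. With a minimum allele frequency of 0.7 the strand shares against the 5 other classes, the correlation and the reference-strand differences kept their side of the threshold. With 1 library per strain and no depth per SNV, errors of single allele frequencies could not be given. Counts were not set against the available bases or codons.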

Other observations

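The same rule was applied to the tables of the 2 other experiments, each of 1 strain against 1 control strain. YMS6 was called against YGDP939, a W303 derivative with sml1Δ::URA3, rad53Δ::LEU2 and exo1Δ::HIS3. At an allele frequency of at least 0.25 it had 24 T-to-C SNVs among 63 coding SNVs outside chromosome XII, of which 11 read T-to-C and 13 A-to-G on the coding strand and 8 were nonsynonymous. FLO1, FLO5, FLO9, MSS11 and YMR317W each held more than 1 of them. At 0.7 or above YMS6 had 3 among 12, in RGI2 and MSS11, all A-to-G on the coding strand. The authors set a lower minimum allele count for these 2 experiments than the 20 used for the suppressors, so the counts are not directly comparable. S64Balpha, a suppressor strain of mating type alpha with sml1Δ::URA3, rad53Δ::HIS3, chk1Δ::LEU2 and exo1Δ::TRP1, was called against W64Aalpha, which carries the same deletions. It had 0 T-to-C SNVs among 12 coding SNVs at 0.25 or above. With 1 strain each, these counts were not tested.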
